A study of Arabidopsis thaliana with 12 samples.

Results

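The genes described here are those of the plastid genome, measured in Arabidopsis thaliana root tips while the microRNA gene MIR165A was switched on. They were taken as every probe set that the array's annotation assigns to exactly 1 gene on the plastid chromosome, without regard to its signal. This gave 69 probe sets for 69 genes, all protein-coding, out of 22746 probe sets tested. By the prefix of their symbols they fall into atp (6 genes), psa (5), psb (15), pet (6), ndh (10), rpo (4), rpl (7), rps (8) and 8 others (matK, ycf3, rbcL, accD, ycf4, cemA, clpP and ccsA). A further 8 probe sets match 7 genes that the gene table lists at 2 places on the plastid chromosome (rps12, rpl2, rpl23, ycf2, ndhB, rps7 and ycf1), and they stayed outside the 69.

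Plastids of plants keep a small genome of bacterial origin, which encodes core subunits of the photosynthetic complexes together with part of the machinery that transcribes and translates them. Its genes lie largely in clusters transcribed together and are read by 2 kinds of RNA polymerase, a bacterial-type enzyme whose core subunits are the plastid rpo genes and phage-type enzymes encoded in the nucleus. In root tips the plastids are proplastids and, in the columella of the cap, starch-filled amyloplasts, which do not carry out photosynthesis but do make fatty acids, starch and amino acids.

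All 12 arrays came from plants in the Col-0 background carrying pCRE1_XVE::MIR165A, in which the promoter of the cytokinin receptor gene CRE1, active in the vascular cylinder of the root, drives an estradiol-dependent activator (XVE) that turns on MIR165A. The 4 groups of 3 replicates were seedlings on mock plates with ethanol only (called 0 h) and seedlings on 5 µM β-estradiol in ethanol for 6 h, 10 h or 24 h. All were grown on 1% sucrose at 22 °C with 18 h of light and 6 h of dark, and were collected 4 days after germination, within 4.5 h of the same age. Each replicate pooled about 200 hand-cut root tips of 0.5 mm. Mock seedlings were one group only, and plants without the transgene on estradiol were not analysed here, so estradiol, induced MIR165A and the time since transfer cannot be told apart. The labels give neither the time of day at which tips were cut nor how long mock seedlings stood on mock plates. The light and dark cycle therefore cannot be told apart from the groups. PHV, an HD-ZIP III transcription factor gene whose mRNA miR165 cleaves, had a log2 signal of 6.99 to 7.16 on the mock arrays and of 6.43 to 6.80 on the 9 estradiol arrays, with no overlap. Listed nuclear genes were looked up by locus tag among probe sets assigned to exactly 1 gene, so a gene not matched may still be on the array. Of 15 root tip marker genes listed for a check of the tissue, the lookup matched 1 (EXPA7, an expansin of root hair cells). It matched none of 11 green-tissue markers, so the label of the tissue was checked on very few genes.

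The values are log2 signals, and a difference of 1 is a doubling of signal. Signals of different probe sets depend on their probes and are not comparable between genes, so each gene is set only against itself on other arrays. The labelling kit primes from poly(A) tails, which most plastid transcripts lack in stable form, so that a plastid signal need not follow the total amount of the transcript. Over the 12 arrays, 52 of the 69 genes had a mean log2 signal of at least 5, and 11 were below 4, where the signal changes little with the amount of RNA. The arrays with the lowest medians over all probe sets were mock replicate 1 (5.97) and 24 h replicate 3 (5.98), while the other 10 had medians from 6.06 to 6.13, and results are therefore also given without these 2.

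At 24 h on estradiol the plastid genes read lower as a set, by a median log2 difference of -0.20 from mock, with group medians of -0.40 for the atp, -0.32 for the rps and -0.32 for the rpl genes, and atpH, the ring subunit of the plastid ATP synthase, fell by 0.71 on the log2 scale. Of the 69 genes, 54 had a negative difference, against 52.9% of all tested probe sets, whose median difference was -0.01. The shift was seen mainly in the brighter genes: 45 of the 52 with a mean log2 signal of at least 5 were negative (median -0.24). Below 5, 9 of 17 were negative (median -0.02). One gene passed the test (limma, Benjamini-Hochberg adjusted p under 0.05 over all tested probe sets), and it was lower, where 0.233% of all tested probe sets were called lower. At an unadjusted p under 0.05, 18 of the 69 genes were lower and 0 higher, against 5.05% of all probe sets lower. In 19 genes all 3 arrays at 24 h lay below all 3 mock arrays, against 6.57% of all probe sets, and in 0 genes did they lie above, against 6.85%. Without mock replicate 1 and 24 h replicate 3 the median was -0.082, 42 of the 69 differences were negative, 7 genes were lower at an unadjusted p under 0.05 (5.65% of all probe sets) and 0 were called. The genes were measured on the same arrays and moved together between replicates, so these counts are not counts of independent events. In tissue with many cell types, fewer cells rich in plastid RNA and less plastid RNA per cell cannot be told apart.

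**Figure D1:**
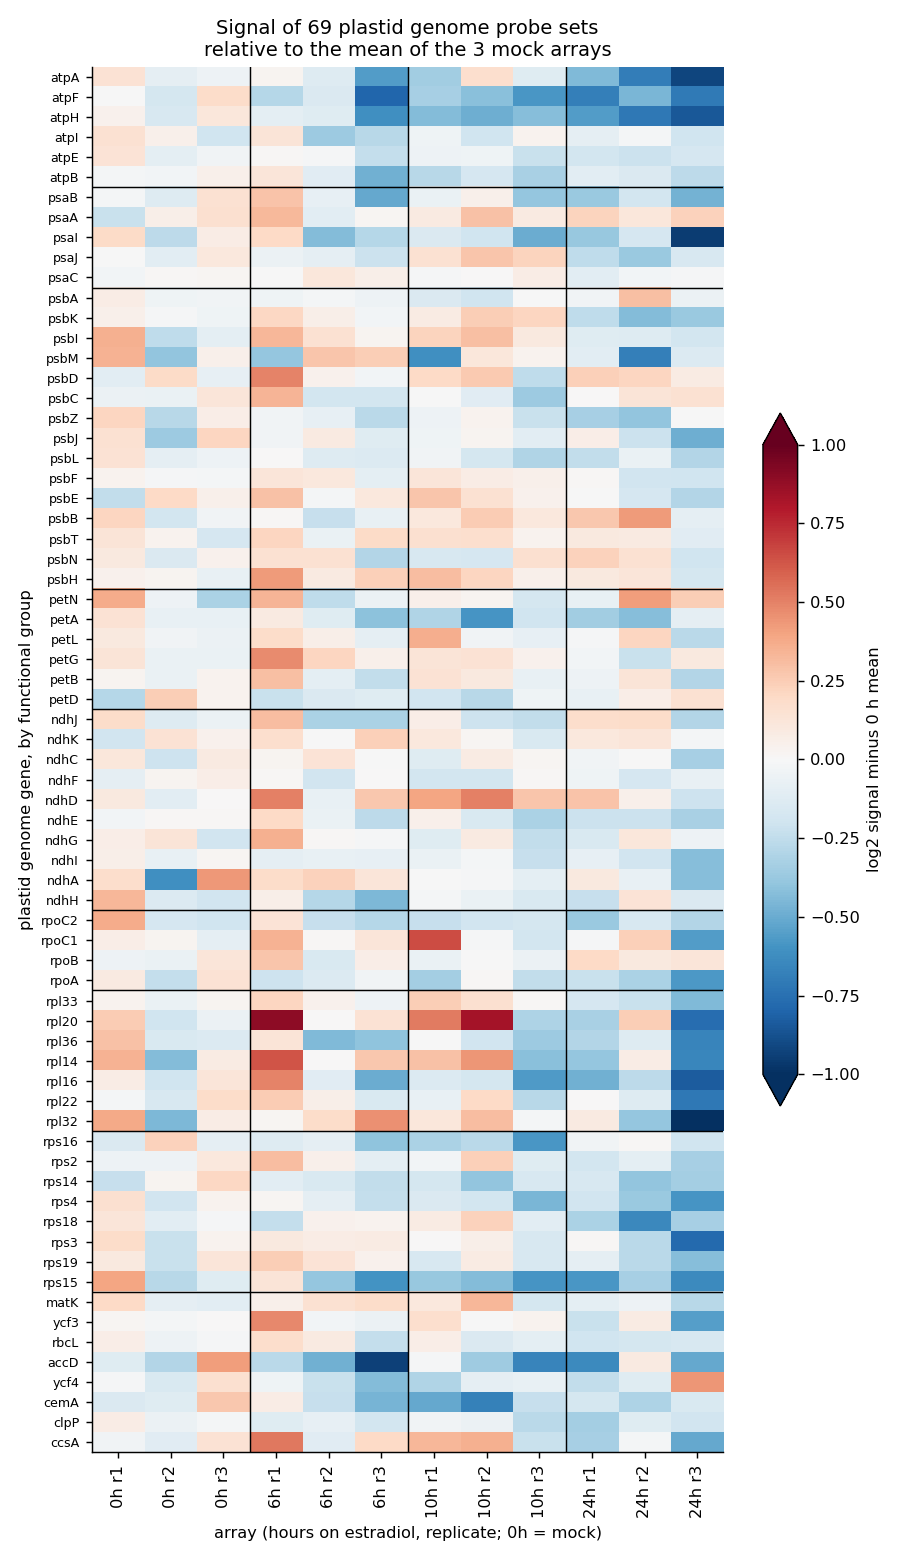
Log2 signal of each of the 69 plastid genome probe sets (rows, by functional group and then gene order) on each of the 12 arrays (columns), minus the gene's mean over the 3 mock arrays; blue is lower and red higher, and values beyond 1 in size take the end colour. The atpA, atpF and atpH rows at the top are blue on all 24 h arrays, and the last column, 24 h replicate 3, is blue in most rows.

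At 6 h the set showed no such shift. The median difference from mock was -0.016, with 36 genes negative and 33 positive. None of the 69 genes passed (limma, adjusted p under 0.05), where 0.422% of all probe sets did, and 5 genes had an unadjusted p under 0.05 (9.39% of all probe sets), which were atpF, atpH and accD with a lower and petG and psbH with a higher signal. At 10 h the median was -0.058, with 44 negative differences, and 1 gene was called lower, again atpH, where 2.79% of all probe sets were called lower and 7.50% in either direction. In 7 genes all arrays at 10 h were below all mock arrays (14.4% of all probe sets) and in 5 they were above (12.5%). The 3 comparisons with mock share the same mock arrays, and their values are given side by side for this reason only.

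**Figure D2:**
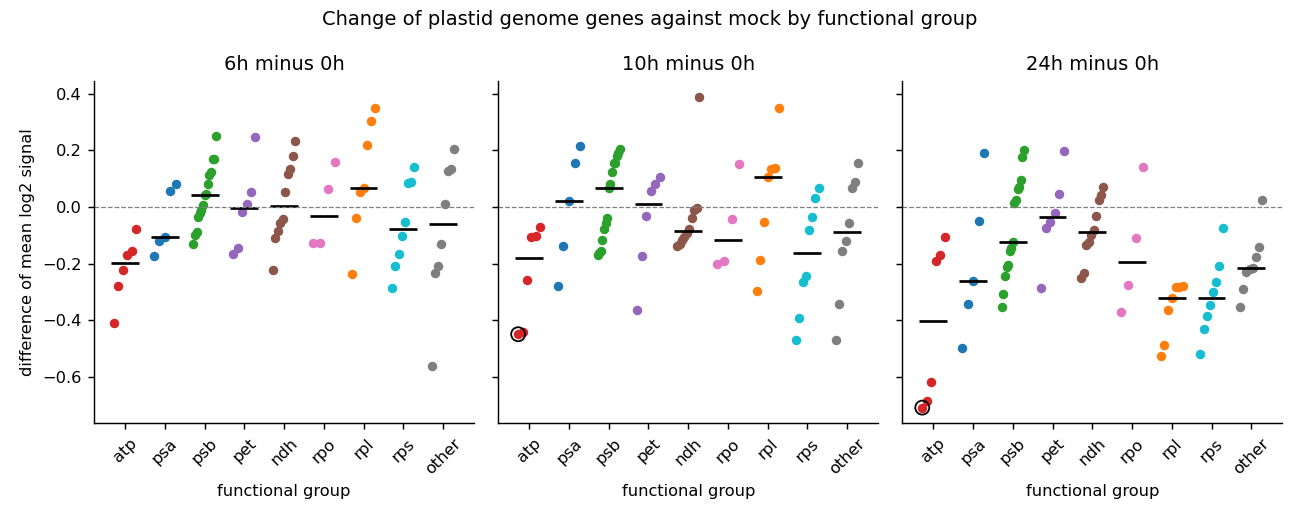
Difference of the mean log2 signal from mock at 6 h, 10 h and 24 h for the plastid genes by functional group (points, 1 gene each; black bar, median of the group; ring, adjusted p under 0.05). The atp group lies below 0 at each time, and the rps and rpl groups lie wholly below 0 at 24 h.

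The plastid ATP synthase genes had a median difference of -0.40 at 24 h, and all 6 differences were negative at 6 h, 10 h and 24 h, although only atpH passed the test. The enzyme uses the proton gradient across the thylakoid membrane to make ATP. Its membrane part is made from atpH (subunit c, the rotating ring), atpF (a stator subunit) and atpI (subunit a), and its catalytic part from atpA (α), atpB (β) and atpE (ε). The log2 signal of atpH was 7.10, 6.90 and 7.18 with mock, 6.96, 6.94 and 6.44 after 6 h, 6.63, 6.57 and 6.63 after 10 h, and 6.50, 6.34 and 6.21 after 24 h. At 10 h and at 24 h all arrays were below all mock arrays, and the arrays at 24 h were also below all those at 10 h. The difference from mock was -0.28 ± 0.13 at 6 h (limma's SE, n = 3 per group, adjusted p = 0.527), -0.45 ± 0.13 at 10 h (adjusted p = 0.0495) and -0.71 ± 0.13 at 24 h (adjusted p = 0.0214). Leaving out 1 array at a time, the 24 h difference ranged from -0.79 to -0.64 and the adjusted p from 0.00355 to 0.0903, and the call was lost without mock replicate 1, mock replicate 3, 24 h replicate 2 or 24 h replicate 3. Without mock replicate 1 and 24 h replicate 3 together the difference was -0.62 (adjusted p = 0.0907). The 10 h call was lost without 7 of the 12 arrays in turn, with an adjusted p up to 0.147.

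The genes atpF and atpA follow atpH in one cluster, rps2-atpI-atpH-atpF-atpA, which is transcribed together. For atpF the log2 signal was 5.84, 5.66 and 6.02 with mock, 5.55, 5.69 and 5.05 after 6 h, 5.51, 5.43 and 5.26 after 10 h, and 5.16, 5.39 and 5.13 after 24 h. It was below mock on every array at 10 h and 24 h, and 6 h overlapped mock by 1 array. For atpA the signal was 7.76, 7.52 and 7.56 with mock, 7.64, 7.48 and 7.05 after 6 h, 7.26, 7.78 and 7.49 after 10 h, and 7.17, 6.92 and 6.69 after 24 h. Here 10 h spanned the mock range, and only the arrays at 24 h lay wholly below it. The 24 h differences, -0.62 ± 0.15 for atpF and -0.68 ± 0.16 for atpA, missed the threshold (limma, adjusted p = 0.0796 for each). The cluster's other 2 genes had smaller differences: rps2, for a protein of the small ribosomal subunit, read -0.21 ± 0.12, and the dim atpI read -0.10 ± 0.13.

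In the separate atpB-atpE cluster the 24 h differences were -0.17 ± 0.12 for atpB and -0.19 ± 0.09 for atpE, with all arrays below mock in both. The signal of atpE was 12.48, 12.25 and 12.32 with mock, 12.36, 12.34 and 12.11 after 6 h, 12.30, 12.31 and 12.12 after 10 h, and 12.17, 12.13 and 12.18 after 24 h. The 24 h arrays lay just under the lowest mock array. For atpI the values were 3.53, 3.43 and 3.19 with mock, 3.51, 3.02 and 3.10 after 6 h, 3.34, 3.18 and 3.42 after 10 h, and 3.29, 3.36 and 3.18 after 24 h, near the floor of the array and overlapping at all times. Without mock replicate 1 and 24 h replicate 3, the atp median at 24 h was -0.31 and 5 of 6 differences were negative. After centring each array on its median it was -0.39, and after a further quantile normalization -0.41, with 6 of 6 negative in both.

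**Figure D3:**
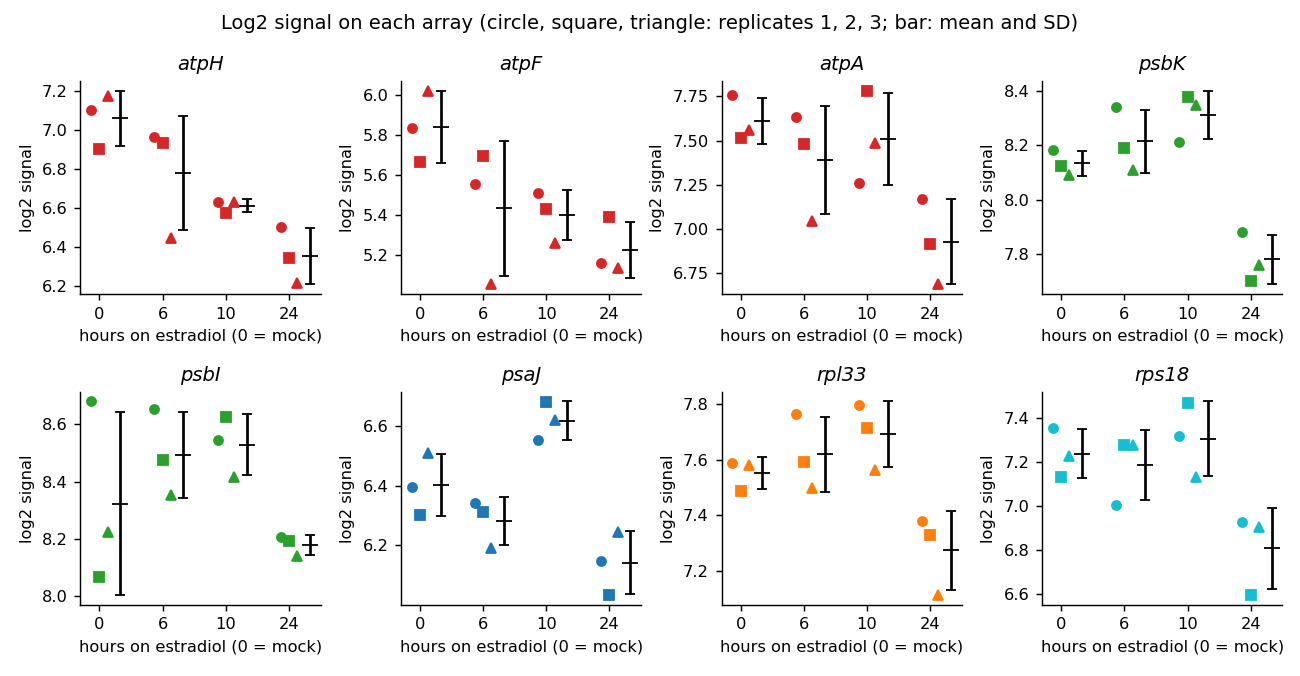
Log2 signal on each array of 8 plastid genes by time on estradiol (circle, square and triangle are replicates 1, 2 and 3; the bar is the mean with the SD of 3 arrays; vertical axes differ). The 24 h arrays of atpH, atpF and atpA lie below the mock arrays, and those of psbK, psaJ, rpl33 and rps18 lie below both mock and 10 h arrays.

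Between 10 h and 24 h, 4 plastid genes fell, namely psbK, psaJ, rpl33 and rps18, where 1.06% of all probe sets were called lower (limma, adjusted p under 0.05), and 0 rose. At an unadjusted p under 0.05, 11 were lower (8.45% of all probe sets) and 1 higher. In 11 genes all arrays at 24 h lay below all arrays at 10 h (11.0% of all probe sets) and in 3 above (9.65%). The median difference was -0.12, against 0.00 for all probe sets. The test over all 4 times was passed by 3 genes, psbK, psaJ and atpH, where 5.95% of all probe sets passed.

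A small subunit of photosystem II, the complex that splits water, is encoded by psbK. Its log2 signal was 8.18, 8.12 and 8.09 with mock, 8.34, 8.19 and 8.11 after 6 h, 8.21, 8.38 and 8.35 after 10 h, and 7.88, 7.70 and 7.76 after 24 h. The 10 h arrays were all above mock and the 24 h arrays all below it. The fall from 10 h to 24 h was -0.53 ± 0.09 (limma, adjusted p = 0.00805), while the difference of 24 h from mock, -0.35 ± 0.09, missed the threshold (adjusted p = 0.0884). The call between 10 h and 24 h was lost without 10 h replicate 3 (adjusted p = 0.0524) and in no other of 20 refits. The fall was smaller than the 1.5-fold change used as a further alternative. Its neighbour psbI, another small subunit of photosystem II, read -0.35 ± 0.13 between 10 h and 24 h (adjusted p = 0.207), with all 24 h arrays below all 10 h arrays.

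The other 3 genes that fell, psaJ, rpl33 and rps18, are consecutive protein-coding genes in the RefSeq table of assembly TAIR10.1; that they neighbour each other was noticed after their calls. psaJ encodes a small subunit of photosystem I, and its log2 signal was 6.40, 6.30 and 6.51 with mock, 6.34, 6.31 and 6.19 after 6 h, 6.55, 6.68 and 6.62 after 10 h, and 6.15, 6.03 and 6.25 after 24 h. Mock and 6 h overlapped, the 10 h arrays were above both, and the 24 h arrays were below mock. The fall from 10 h to 24 h was -0.48 ± 0.09 (limma, adjusted p = 0.0152), and the call was lost without 10 h replicate 2, 10 h replicate 3 or 24 h replicate 2 (adjusted p up to 0.0755).

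The genes rpl33 and rps18 encode proteins of the large and the small subunit of the plastid ribosome. The log2 signal of rpl33 was 7.59, 7.49 and 7.58 with mock, 7.76, 7.59 and 7.50 after 6 h, 7.80, 7.71 and 7.56 after 10 h, and 7.38, 7.33 and 7.11 after 24 h. That of rps18 was 7.36, 7.13 and 7.23 with mock, 7.01, 7.28 and 7.28 after 6 h, 7.32, 7.47 and 7.13 after 10 h, and 6.93, 6.59 and 6.90 after 24 h. In both genes the 24 h arrays lay below all others, and the 3 earlier groups overlapped. The falls from 10 h were -0.42 ± 0.10 for rpl33 (limma, adjusted p = 0.0491) and -0.50 ± 0.12 for rps18 (adjusted p = 0.0497). Both calls sat at the threshold and were each lost in 13 of 20 refits, with an adjusted p up to 0.173 and 0.180. The gene that follows them in the order, rpl20, read -0.63 ± 0.30 (adjusted p = 0.33), with a wide spread among its arrays.

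**Figure D4:**
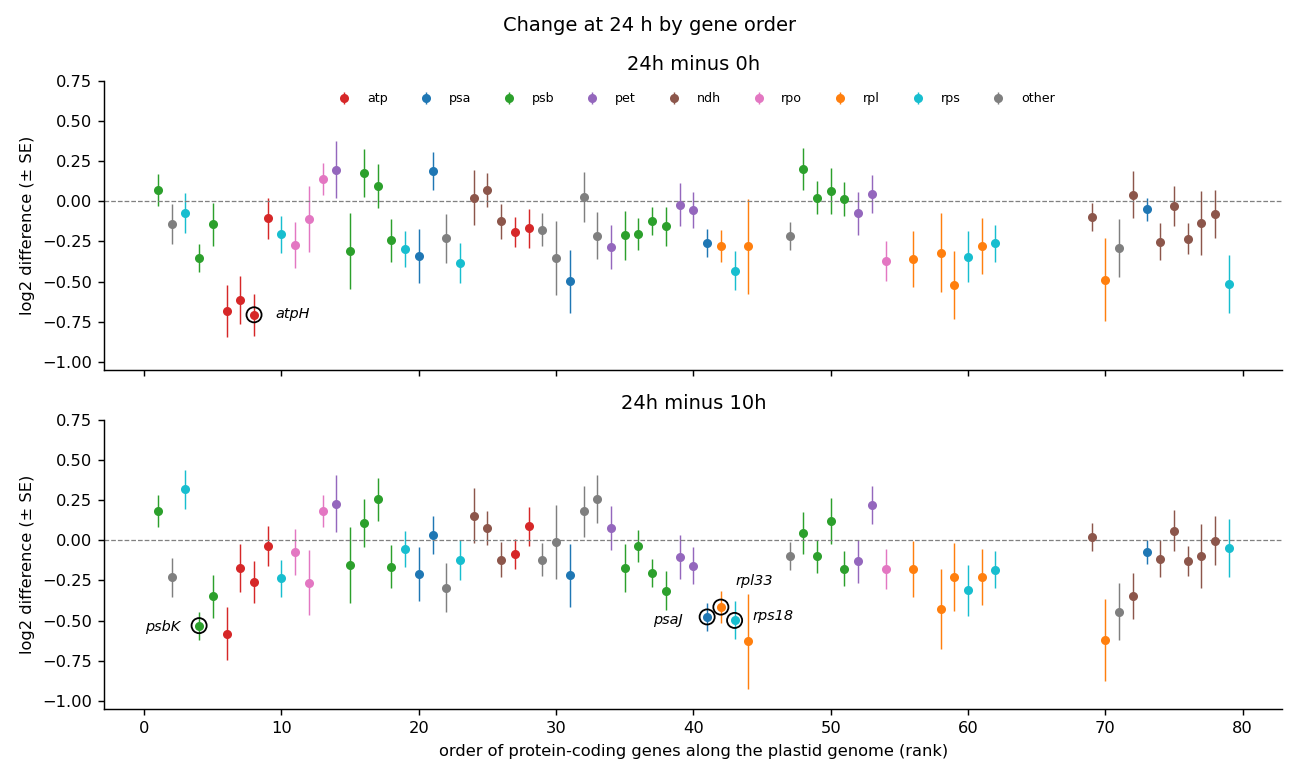
Log2 difference (± limma's SE) of the 69 genes at 24 h against mock (top) and against 10 h (bottom), placed by the rank of the protein-coding genes along the plastid genome and coloured by functional group; rings and names mark an adjusted p under 0.05. The lowest points at 24 h against mock are the neighbours atpA, atpF and atpH, and psaJ, rpl33 and rps18 stand next to each other in the lower panel.

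The genes of the plastid ribosome read lower at 24 h throughout, with none past the test against mock. All 8 rps genes had a negative difference, with a median of -0.32 and a range from -0.52 to -0.07, and 6 had an unadjusted p under 0.05 (5.05% of all probe sets were lower by this rule); all 7 rpl genes did too, with a median of -0.32 and a range from -0.52 to -0.28, and 2 had an unadjusted p under 0.05. At 10 h the rpl median was 0.11 and the rps median -0.16. The signal of rps15 was 7.69, 7.02 and 7.18 with mock, 7.42, 6.90 and 6.70 after 6 h, 6.92, 6.86 and 6.70 after 10 h, and 6.72, 6.96 and 6.66 after 24 h. All arrays at 10 h and 24 h were below mock, and mock replicate 1 stood high. Its 24 h difference was -0.52 ± 0.18 (limma, adjusted p = 0.271), and -0.32 at the least when 1 array was left out.

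The ribosomal protein gene rpl16 had a signal of 10.37, 10.09 and 10.41 with mock, 10.79, 10.17 and 9.79 after 6 h, 10.15, 10.11 and 9.72 after 10 h, and 9.81, 10.03 and 9.46 after 24 h. The 24 h arrays were all below mock, by -0.52 ± 0.21 (limma, adjusted p = 0.372), while 6 h spanned more than the whole mock range. In rps3 the arrays read 10.82, 10.41 and 10.67 with mock, 10.73, 10.71 and 10.71 after 6 h, 10.64, 10.69 and 10.47 after 10 h, and 10.65, 10.37 and 9.85 after 24 h, so that 24 h replicate 3 was low, replicate 1 was inside the mock range and replicate 2 just under it. The same array was the lowest of all 12 in rpl14, which read 10.51, 9.72 and 10.24 with mock, 10.79, 10.16 and 10.43 after 6 h, 10.45, 10.60 and 9.74 after 10 h, and 9.77, 10.23 and 9.51 after 24 h. It was also the lowest in rpl20, with 7.30, 6.85 and 6.99 with mock, 7.94, 7.05 and 7.19 after 6 h, 7.56, 7.88 and 6.74 after 10 h, and 6.72, 7.29 and 6.28 after 24 h. In both of these genes every group overlapped every other.

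The dim rps14 read 3.88, 4.15 and 4.32 with mock, 4.01, 3.97 and 3.87 after 6 h, 3.94, 3.73 and 3.96 after 10 h, and 3.96, 3.72 and 3.78 after 24 h, a 24 h difference of -0.30 ± 0.11 (limma, adjusted p = 0.316) with overlapping groups. In the cluster that begins with rpl23, all 7 members measured as single genes had a negative 24 h difference, with a median of -0.35. They were ribosomal protein genes and the polymerase gene rpoA. Leaving out mock replicate 1 and 24 h replicate 3 together changed the rpl median at 24 h to -0.066, with 4 of 7 negative, and the rps median to -0.19, with 8 of 8 negative. The rps group thus kept its direction in every gene without these 2 arrays, and the rpl group did not. In the remaining groups the medians without them were -0.18 (psa), -0.19 (the 8 others), -0.0055 (pet), 0.038 (psb), 0.028 (ndh) and 0.021 (rpo), so that the last 3 changed sign.

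The 4 rpo genes encode the core subunits of the bacterial-type plastid RNA polymerase, and none passed in any comparison. For rpoA (α subunit) the signal was 11.25, 10.92 and 11.31 with mock, 10.95, 11.02 and 11.12 after 6 h, 10.82, 11.17 and 10.91 after 10 h, and 10.93, 10.84 and 10.58 after 24 h. Its 24 h difference was -0.37 ± 0.13 (limma, adjusted p = 0.25), with 24 h replicate 1 just inside the mock range. The dim rpoB (β subunit) read 3.37, 3.36 and 3.54 with mock, 3.70, 3.27 and 3.49 after 6 h, 3.36, 3.42 and 3.36 after 10 h, and 3.62, 3.52 and 3.55 after 24 h, a difference of 0.14 ± 0.10. For rpoC1 and rpoC2 (the 2 parts of the β′ subunit) the 24 h differences were -0.11 ± 0.20 and -0.27 ± 0.14.

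Genes were also grouped by the polymerase that reads them in tobacco. The 7 genes with promoters of the bacterial-type polymerase (psbA, psbD, psbE, psaA, rbcL, petB and ndhA) had a median 24 h difference of -0.073, with values from -0.18 to 0.19. Of 3 genes with promoters of the phage-type polymerase only, the 2 measured as single genes were accD, at -0.35 ± 0.23, and rpoB, at 0.14 ± 0.10. None of these 9 passed against mock at any time. Among them psaA, psbD and rpoB were dim, with mean log2 signals of 4.76, 4.49 and 3.46. Of the 3 nuclear phage-type polymerases, the lookup by locus tag matched RPOTMP, with a 24 h difference of 0.20 ± 0.12 (limma, adjusted p = 0.579). The lookup matched none of the 6 sigma factors of the plastid polymerase, its 13 associated proteins or 3 plastid RNA-degrading enzymes, so these were not examined.

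The photosystem genes did not all read in one direction at 24 h. Among those with a mean log2 signal of at least 5, 3 of 3 psa differences were negative (median -0.34), as were 8 of 12 psb differences (median -0.15). The 5 psa genes had a median 24 h difference of -0.26, with 4 negative. In photosystem I, psaI, a small subunit, read 9.13, 8.68 and 9.01 with mock, 9.14, 8.50 and 8.66 after 6 h, 8.79, 8.74 and 8.44 after 10 h, and 8.56, 8.77 and 7.99 after 24 h. Its 24 h difference was -0.50 ± 0.20 (limma, adjusted p = 0.36) and depended on 24 h replicate 3, without which it was -0.27. psaC, the subunit that holds iron-sulfur clusters at the electron exit, read 3.17, 3.20 and 3.21 with mock, 3.19, 3.31 and 3.25 after 6 h, 3.19, 3.20 and 3.27 after 10 h, and 3.09, 3.17 and 3.18 after 24 h, at the floor of the array. Of the reaction centre genes, psaA read 0.19 ± 0.12 and psaB -0.34 ± 0.17 at 24 h.

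Among the 15 psb genes of photosystem II, 8 differences were negative and 7 positive at 24 h, with a median of -0.12 and a range from -0.35 to 0.20. The reaction centre gene psbA had a 24 h difference of 0.07 ± 0.10, and its partner psbD one of 0.18 ± 0.15. The small subunit gene psbM read 10.77, 10.02 and 10.47 with mock, 10.03, 10.70 and 10.67 after 6 h, 9.81, 10.53 and 10.46 after 10 h, and 10.32, 9.74 and 10.28 after 24 h, with wide overlap. psbT, another small subunit gene, read 3.60, 3.50 and 3.30 with mock, 3.68, 3.40 and 3.65 after 6 h, 3.63, 3.63 and 3.50 after 10 h, and 3.56, 3.55 and 3.35 after 24 h. In the psbE-psbF-psbL-psbJ cluster, whose first 2 genes encode cytochrome b559, all 4 differences were negative at 24 h (median -0.18). In the psbB cluster 4 of 5 were positive (median 0.024). Its genes psbB, psbT and petD were dim, with mean log2 signals of 3.83, 3.53 and 3.90, so its direction is poorly measured. The other clusters described as transcribed together had median 24 h differences of -0.30 (psaA-psaB-rps14), 0.14 (psbD-psbC), -0.11 (rpoB-rpoC1-rpoC2), -0.079 (ndhH to ndhD) and 0.023 (ndhC-ndhK-ndhJ), with no member past the test. The medians -0.30, -0.079 and 0.023 were the values of rps14, ndhH and ndhJ. These genes were dim, with mean log2 signals of 3.94, 3.61 and 4.63. Over all neighbours in gene order the median absolute difference between the 24 h changes of 2 genes was 0.15, against 0.20 for all pairs, as a description.

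The cytochrome b6f and NDH genes, for the complexes that pass electrons between the photosystems and around photosystem I, had median 24 h differences of -0.037 for the 6 pet and -0.088 for the 10 ndh genes. The pet differences ran from -0.29 to 0.20 and the ndh differences from -0.25 to 0.07. petA (cytochrome f) read 9.91, 9.69 and 9.69 with mock, 9.85, 9.65 and 9.36 after 6 h, 9.46, 9.18 and 9.56 after 10 h, and 9.42, 9.34 and 9.68 after 24 h. It lay below mock on all arrays at 10 h and 24 h, by -0.36 ± 0.14 (limma, adjusted p = 0.137) and -0.29 ± 0.14 (adjusted p = 0.481). The small subunit gene petG read 3.49, 3.30 and 3.29 with mock, 3.83, 3.57 and 3.41 after 6 h, 3.48, 3.51 and 3.40 after 10 h, and 3.33, 3.13 and 3.46 after 24 h, dim and overlapping.

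Of the ndh genes, ndhI read 10.10, 9.96 and 10.05 with mock, 9.94, 9.96 and 9.96 after 6 h, 9.97, 10.02 and 9.81 after 10 h, and 9.96, 9.85 and 9.61 after 24 h, a 24 h difference of -0.23 ± 0.10 (limma, adjusted p = 0.384). The dim ndhE read 3.85, 3.90 and 3.90 with mock, 4.08, 3.81 and 3.62 after 6 h, 3.93, 3.73 and 3.57 after 10 h, and 3.66, 3.67 and 3.56 after 24 h, below mock on all 24 h arrays by -0.25 ± 0.12 (adjusted p = 0.457). ndhF stayed at the floor with 3.10, 3.22 and 3.26 with mock, 3.20, 3.01 and 3.20 after 6 h, 3.02, 3.02 and 3.20 after 10 h, and 3.15, 3.03 and 3.12 after 24 h. With 6 of the 10 ndh and 3 of the 6 pet genes under a mean log2 signal of 5, small differences in these groups could not be seen well. At 10 h, ndhD was above mock on all arrays, by 0.39 ± 0.14 (adjusted p = 0.127).

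The 8 other genes include several with a role outside photosynthesis, and none passed; their 24 h differences ran from -0.35 to 0.03, with 7 of 8 negative. accD, a subunit of the acetyl-CoA carboxylase that starts fatty acid synthesis, read 8.60, 8.43 and 9.14 with mock, 8.46, 8.24 and 7.79 after 6 h, 8.71, 8.37 and 8.07 after 10 h, and 8.09, 8.81 and 8.21 after 24 h. The difference was largest at 6 h, -0.56 ± 0.23 (limma, adjusted p = 0.442), and the groups overlapped at 24 h. Leaving out 1 array moved the 24 h difference from -0.57 (without 24 h replicate 2) to -0.15 (without mock replicate 3). clpP, a subunit of the plastid protease, read 11.85, 11.72 and 11.76 with mock, 11.66, 11.70 and 11.60 after 6 h, 11.74, 11.72 and 11.51 after 10 h, and 11.44, 11.66 and 11.59 after 24 h. It was below mock on all arrays at 6 h and 24 h, by -0.13 ± 0.09 and -0.22 ± 0.09 (adjusted p = 0.715 and 0.38).

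ycf4, a photosystem I assembly factor, read 5.97, 5.82 and 6.14 with mock, 5.94, 5.75 and 5.55 after 6 h, 5.68, 5.89 and 5.90 after 10 h, and 5.73, 5.86 and 6.42 after 24 h, where replicate 3 was the highest of the 12 arrays. The large subunit of Rubisco, rbcL, differed at 24 h by -0.18 ± 0.10, with all arrays below mock. cemA, for a protein of the plastid envelope, differed at 10 h by -0.47 ± 0.15 (limma, adjusted p = 0.0732), and rps16 by -0.39 ± 0.12 (adjusted p = 0.0732), both below mock on all 10 h arrays. The splicing factor gene matK, the assembly factor gene ycf3 and the cytochrome c assembly gene ccsA had 24 h differences of -0.14 ± 0.12, -0.23 ± 0.15 and -0.29 ± 0.18.

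The plastid genes varied together between replicates of one group. The median SD within groups was 0.181 for the 69 genes and 0.130 for all probe sets. The median Pearson correlation of deviations from the group means over the 12 arrays was 0.315 for the 2346 pairs of plastid genes, 0.262 for the 64 pairs next to each other in gene order, and 0.034 for all pairs of tested probe sets; the points share their arrays, and the values are a description. Of the 69 genes, 53 were higher on 6 h replicate 1 than on both other 6 h arrays, as were 45.6% of all probe sets. On mock replicate 2, 45 were lower than on both other mock arrays (23.5% of all probe sets). The like counts were 46 on 10 h replicate 3 (34.2%) and 45 on 24 h replicate 3 (45.5%).

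Averaged over the 69 genes, the log2 signal was 7.26, 7.08 and 7.21 with mock, 7.33, 7.12 and 7.05 after 6 h, 7.17, 7.18 and 7.03 after 10 h, and 7.05, 7.08 and 6.88 after 24 h. The 24 h arrays lay below all mock arrays, with replicate 2 within 0.01 of mock replicate 2, and overlapped those at 6 h and 10 h. On 24 h replicate 3 the 3′ minus 5′ signal of the actin control, a measure of RNA integrity and labelling, was 4.36, against 4.59 to 4.96 on the other 11 arrays. The same difference of the GAPDH control was 0.711, inside the range of the other arrays (0.399 to 0.830). Mock replicate 1 had the highest GAPDH difference, 0.830. Its mean log2 signal over the hybridisation control probe sets, 10.67, was also the highest, against 9.56 to 10.16 on the other 11 arrays. The part of these array differences in the results was not tested.

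**Figure D5:**
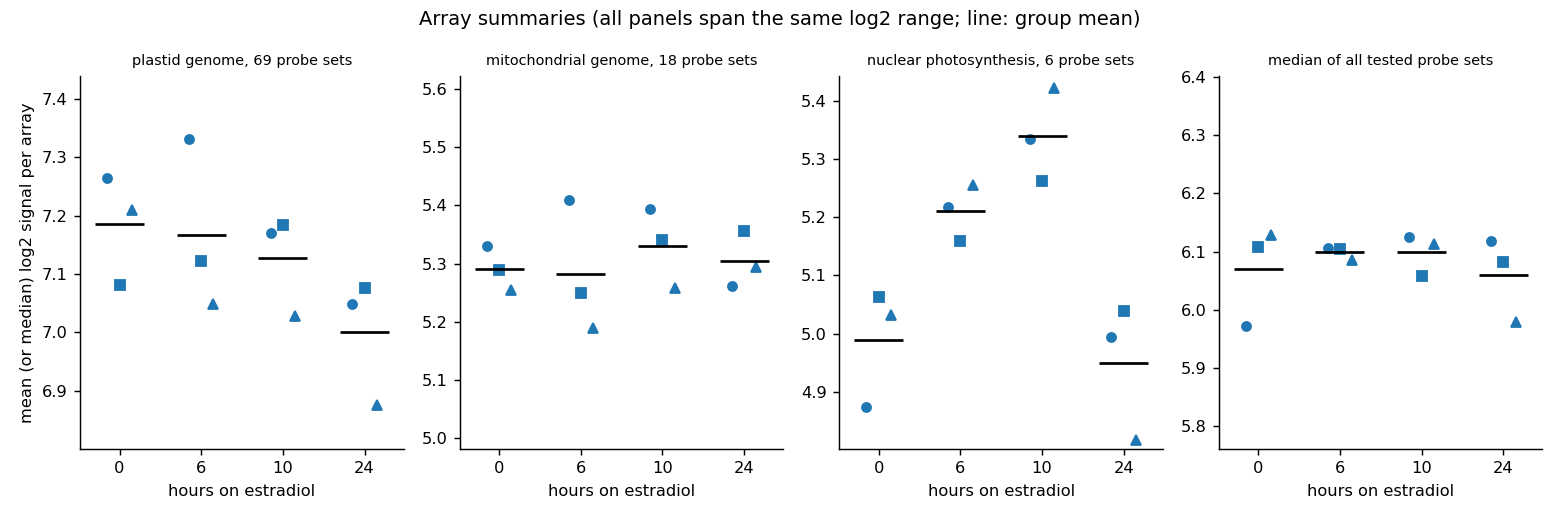
Mean log2 signal per array of the 69 plastid genome, 18 mitochondrial genome and 6 nuclear photosynthesis probe sets, and the median of all tested probe sets, by time on estradiol (circle, square and triangle are replicates 1, 2 and 3; line, group mean; all panels span the same log2 range). The plastid mean is lowest at 24 h, the mitochondrial mean is level, and the nuclear photosynthesis mean is highest at 10 h.

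Genes of the mitochondrial genome, the other organelle genome of these cells, had differences centred near 0 at 24 h. Over 18 probe sets of 11 genes the median difference from mock was 0.012 at 24 h, with 8 negative and 10 positive, and 0 passed in any of the 5 comparisons (limma); at 24 h against mock, 1 was lower and 1 higher at an unadjusted p under 0.05, and 5.05% of all probe sets were lower. The difference between the 2 genomes was not tested. The mitochondrial mean over the 18 probe sets was 5.29 ± 0.04 on mock and 5.30 ± 0.05 at 24 h (SD, n = 3). Some of the 18 had a mean log2 signal below 5 and others were brighter, and several belong to a single gene, nad1. The brightest, nad4 and cox1, had mock means of 9.06 and 7.51. Their 24 h differences were -0.13 ± 0.13 and 0.05 ± 0.18. In the 17 plastid genes below 5 the median 24 h difference was likewise near 0 (-0.02), so a small fall could not be seen well in such dim probe sets.

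Of 37 listed nuclear genes of photosynthesis, whose proteins join those of the plastid genome in the same complexes, the lookup by locus tag matched 6. Of these 6, 2 rose at 10 h, where 4.70% of all probe sets were called higher. LHCB4.1, a chlorophyll-binding antenna protein of photosystem II, had log2 signals of 5.30, 5.60 and 5.48 with mock, 6.19, 5.93 and 6.13 after 6 h, 6.06, 5.95 and 6.27 after 10 h, and 5.59, 5.54 and 5.13 after 24 h. Its 6 h and 10 h arrays were all above mock and the 24 h arrays overlapped it; the rise at 10 h was 0.63 ± 0.13 (limma, adjusted p = 0.00906) and the fall from 10 h to 24 h -0.67 ± 0.13 (adjusted p = 0.0205). PSBY, a small photosystem II protein, rose at 10 h by 0.53 ± 0.12 (adjusted p = 0.0148). Leaving out 1 array at a time, the rise of LHCB4.1 missed the threshold without 10 h replicate 3 (adjusted p = 0.0532), and its fall without 10 h replicate 1 or 10 h replicate 3 (up to 0.105). The rise of PSBY was lost without mock replicate 1 or 10 h replicate 3 (up to 0.0789). ATPC1, the nuclear-encoded γ subunit of the same ATP synthase, read 0.39 ± 0.17 at 10 h (adjusted p = 0.188) and -0.11 ± 0.17 at 24 h (adjusted p = 0.875).

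Of 4 measured genes of chlorophyll synthesis and plastid signalling (20 listed), CHLM, which methylates magnesium protoporphyrin, rose by 0.43 ± 0.11 at 10 h (limma, adjusted p = 0.028) and fell by 0.53 ± 0.11 on the log2 scale from 10 h to 24 h (adjusted p = 0.0287). Without mock replicate 1 the rise of CHLM was 0.28 (adjusted p = 0.0822), and it was also lost without any one of the 10 h arrays (up to 0.101). The fall was lost without any one of the 10 h arrays or 24 h replicate 1 or 2 (up to 0.114). The starch synthesis genes APL3 and SBE2.2, 2 measured of 11 listed, read -0.25 ± 0.16 and -0.09 ± 0.10 at 24 h and did not pass. EXPA7, the root hair gene, rose by 2.02 ± 0.26 at 10 h (adjusted p = 0.0004) and fell by 1.43 ± 0.26 on the log2 scale from 10 h to 24 h (adjusted p = 0.0134), the same interval in which psbK, psaJ, rpl33 and rps18 fell; the part of differing shares of cell types in these results was not tested.

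Between 6 h and 10 h none of the 69 plastid genes passed (limma), where 1.24% of all probe sets did, and 1, psaJ, had an unadjusted p under 0.05 (11.8% of all probe sets). With array weights psaJ passed, where 5.94% of all probe sets did. The 8 probe sets of genes listed at 2 places all had a negative 24 h difference, with a median of -0.23 and none past the test (limma; 2 lower at an unadjusted p under 0.05, against 5.05% of all probe sets), and adding them to the 69 left the calls at 24 h as they were.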

How the data were processed

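Per the labels' protocols, 250 ng of total RNA per sample was labelled with biotin by the GeneChip 3′ IVT Express kit and hybridised to 1-colour arrays. The deposited table holds log2 values for 22810 probe sets; Affymetrix Expression Console, RMA and limma are named in the submitters' processing notes, their versions not being given there. RMA, a method that subtracts background, gives all arrays one distribution and merges the probes of a set into one value, compresses low signals. The values were used as deposited, and 64 control probe sets were left out.

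Genes were found by the annotation's Entrez identifier on the plastid chromosome of the RefSeq table of assembly TAIR10.1, and all 69 symbols were the same in both tables. Of 129 plastid genes there, 85 are protein-coding with 78 distinct symbols. No reference genome or sequences were used, and the arrays carry no build, so neither sequences nor coordinates are printed.

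One linear model over the 12 arrays and 4 groups was fitted with limma 3.58.1 in R 4.3.3 (moderated test, Benjamini-Hochberg adjustment over 22746 probe sets, threshold 0.05). The method was tested on simulated data. The number of arrays, 3 per group, limits the precision, and the labels do not say whether replicates came from separate platings, so p-values measure the spread between these samples. Alternatives were array centring, quantile normalization, a filter at log2 5, moderation with a trend, array weights, a replicate block, the 2 groups alone, a minimum 1.5-fold change, leaving out each array, and, chosen after seeing the data, leaving out the 2 arrays with the lowest medians.

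The members and lists were chosen with earlier results of these data known. Genes written out array by array are those past a test and, in each functional group, those with the highest mean, the lowest mean and the largest 24 h difference, with atpF and atpA added after their values were seen; listed nuclear genes are named where they passed, and otherwise by the smallest p, with ATPC1 and both starch genes added likewise. No pair of groups had all 3 correlations between deviations of same-numbered replicates over 0.1. The correlations ran from 0.002 to 0.186 for replicate 1, from -0.104 to 0.074 for replicate 2 and from -0.09 to 0.279 for replicate 3. The main model had no replicate block. With the block, 22 of the 69 genes were lower at 24 h at an unadjusted p under 0.05 (limma, 5.12% of all probe sets), against 18 without it.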

Additional observations from a re-analysis of the deposited data

Results flagged for a closer look

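In 4 plastid genes the change from mock at 24 h differed from the change at 10 h by the test of that difference, the contrast between 24 h and 10 h (limma, adjusted p under 0.05). This contrast called 1.06% of all probe sets lower and 1.79% in either direction. The difference was -0.53 in psbK, -0.50 in rps18, -0.48 in psaJ and -0.42 in rpl33. The calls of psbK and psaJ were lost in 1 and 3 of 20 refits, and those of rps18 and rpl33 in 13 each. None of the 4 falls reached the 1.5-fold change used as a further alternative.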

How the results depend on the processing

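The depth of these results is set by 3 arrays per group and by the signal over background. Small changes, if any, could not be seen well in the 17 genes with a mean log2 signal below 5. No called gene changed direction under any alternative run. Plastid genes called at 10 h were 3 with centred arrays, array weights or only the arrays of the 2 groups. They were 2 with quantile normalization, moderation with a trend, the replicate block or both arrays with the lowest medians (mock replicate 1 and 24 h replicate 3, the dim arrays) left out, which called psbI and rps16, and 0 at a minimum 1.5-fold change. At 24 h against mock they were 2 with the trend and with the replicate block (atpA and atpH), 5 with array weights, and 0 with only the arrays of the 2 groups or without both dim arrays, where the median difference was -0.082. Between 6 h and 10 h array weights called 1. Between 10 h and 24 h the counts were 2 with centring and with the 2 groups alone, 7 with array weights and 0 at 1.5-fold. The test over all times was passed by 5 with the filter, the trend or the block and by 9 with array weights. Over all probe sets these settings called, at 10 h, 1758 with centring, 1966 with quantile normalization, 2049 with the trend, 2182 with weights, 1870 with the block, 1753 with the 2 groups alone, 1529 without both dim arrays and 699 at 1.5-fold, against 1705. At 1.5-fold they called 184 between 10 h and 24 h. Over all times they called 1435 of 13615 with the filter, 1742 with the trend, 1602 with the block and 3593 with weights, against 1353. The causes were not tested.

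Leaving out 1 array at a time, the plastid genes called ranged over 0 to 0 at 6 h, 0 to 2 at 10 h, 0 to 3 at 24 h, 0 to 0 between 6 h and 10 h, 0 to 4 between 10 h and 24 h, and 1 to 5 over all times. The median differences ranged from -0.07 to 0.06, from -0.13 to -0.01, from -0.24 to -0.13, from -0.08 to 0.03 and from -0.19 to -0.04 in the first 5 of these comparisons. Over all probe sets the calls ranged from 34 to 184, 875 to 2151, 65 to 225, 64 to 469 and 93 to 799 in these 5. In the test over all times they ranged from 638 to 1753, or 2.8% to 7.71% of all probe sets.

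All probe sets called at 6 h were 96, and 169 with the trend, 239 with array weights and 160 with the block. At 24 h they were 173, and 520 with weights, 355 with the block and 53 with the 2 groups alone. Between 6 h and 10 h they were 283, and 1351 with weights, 481 with the block, 483 with the 2 groups alone and 627 without both dim arrays. Between 10 h and 24 h they were 407, and 685 with the trend, 2068 with weights, 646 with the block and 1093 without both dim arrays.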
